A study of Mus musculus with 8 samples.

Results

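The 10 genes described here encode core haematopoietic transcription regulators: Gata2, Runx1, Tal1, Lmo2, Erg, Fli1, Lyl1, Gfi1b, Myb and Zfpm1. They were taken as a named list, with no threshold on a measured value, and all 10 had a row in the tables of 18174 gene symbols. Their transcripts were counted in single long-term haematopoietic stem cells (LT-HSC) of untreated wild-type male C57BL/6J mice aged 18 months. The cells lacked lineage markers, CD48 and CD34, carried CD150, Kit and Sca1, and were sorted as positive (Dlk1+) or negative (Dlk1-) for the surface protein Dlk1, a transmembrane relative of the Notch ligands. Each sort had 4 libraries, and no label ties a library to an animal, so the spread between libraries may be partly technical.

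Background to these genes comes from work on blood development. Gata2 and either Tal1 or Lyl1 bind DNA together through the bridging protein Lmo2, while the ETS factors Erg and Fli1 and the RUNX factor Runx1 occupy many of the same enhancers. Together they are known for keeping stem cells in a multipotent state and for binding one another's regulatory regions. Gfi1b is a transcriptional repressor active in stem cells, megakaryocytes and erythroid cells, Myb a factor of progenitor expansion, and Zfpm1 (also called FOG1) a partner of GATA factors that binds them and not DNA.

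The upstream windows of the genes are shown because these factors read short motifs there. For 8 of the 10 genes RefSeq (GRCm38.p6) gave 13 transcription start sites, and the 250 bases upstream of each were searched on both strands. Lmo2 and Fli1 had no entry in the set of start sites used here. The motif searched for GATA factors was spelled AGATAA and that for ETS factors CGGAA. The E-box, bound by Tal1 and Lyl1, was spelled CANNTG and reads alike on both strands, and the motif of RUNX factors was spelled TGTGGT. Matches of different motifs were allowed to overlap. The 3 windows that held 2 kinds of motif are printed 5' to 3' on the gene's strand, with motif matches on either strand in capitals. That of Tal1 lies at chr4:115056176-115056425, plus strand, just before the annotated gene and in no annotated gene. That of Lyl1 lies at chr8:84701207-84701456, plus strand, outside Lyl1 and within an intron of Nfix. That of Erg lies at chr16:95459349-95459598, minus strand, in an intron of Erg before one of its inner start sites.
Tal1: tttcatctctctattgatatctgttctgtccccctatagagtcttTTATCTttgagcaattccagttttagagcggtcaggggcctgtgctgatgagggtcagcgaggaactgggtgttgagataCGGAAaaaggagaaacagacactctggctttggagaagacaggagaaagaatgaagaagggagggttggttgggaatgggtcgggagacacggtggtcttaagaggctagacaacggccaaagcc
Lyl1: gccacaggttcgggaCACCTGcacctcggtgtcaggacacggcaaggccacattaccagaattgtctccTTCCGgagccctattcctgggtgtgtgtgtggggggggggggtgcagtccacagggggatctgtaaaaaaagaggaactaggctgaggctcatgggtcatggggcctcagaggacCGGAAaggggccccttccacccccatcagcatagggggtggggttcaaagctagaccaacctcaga
Erg: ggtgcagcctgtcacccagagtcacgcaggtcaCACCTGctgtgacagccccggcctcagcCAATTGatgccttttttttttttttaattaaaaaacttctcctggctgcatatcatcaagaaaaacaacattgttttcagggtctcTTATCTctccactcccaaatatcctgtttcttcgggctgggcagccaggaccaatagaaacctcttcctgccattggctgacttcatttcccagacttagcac
The Tal1 window held 1 GATA and 1 ETS motif, the Lyl1 window 2 ETS motifs and 1 E-box, and the Erg window 1 GATA motif and 2 E-boxes. Of the 13 windows, 2 held a GATA motif (15.4%), 5 an ETS motif (38.5%), 4 an E-box (30.8%) and 0 the RUNX motif, and several windows share a gene. Of 32851 windows of the same length over all genes, 9.99% held the GATA motif, 25.2% the ETS motif, 66.2% the E-box and 14.0% the RUNX motif. A match describes letters in the window, and no binding was measured in these cells.

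After a minimum of 1000 transcripts per barcode, 541 cells remained, 321 Dlk1- and 220 Dlk1+. The Dlk1- libraries 1 to 4 held 96, 36, 95 and 94 cells, and the Dlk1+ libraries 86, 27, 26 and 81. Summed transcripts were between 230443 and 517559 for each Dlk1- library and 395691, 102499, 39073.5 and 456925 for Dlk1+ replicates 1 to 4. Dlk1+ replicates 2 and 3 thus stood apart by their low totals, and are called shallow below. In replicate 3 the median cell had 1300 transcripts against 3421 to 5584 elsewhere. Differences between the sorts are therefore also given without 1 or both of these shallow libraries. Transcripts of the repeat-derived genes Gm10800 and Gm26870 took between 10.1% and 32.8% of a library. Barcode numbers mark wells and not cells, so 180 of the 182 numbers used recurred in 2 or more libraries, while 0 were used in both sorts. All 8 HSC markers were detected, with summed levels of 1558 to 1981 CPM (transcripts scaled to the same total in each library) in the Dlk1- and 1331 to 2166 in the Dlk1+ libraries. Transcripts of Dlk1 itself, the sorted protein, stood at 507 ± 146.1 CPM in the Dlk1+ sort and at 28.6 ± 23.9 in the Dlk1- sort (SD, 4 libraries each).

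All 10 factors were expressed at a level that placed them in the upper ranks of the transcriptome, and Lmo2 led them. Levels are CPM of each library, and since the method counts 1 unique molecular identifier (UMI) per 3' end, they can be set side by side between genes without a correction for length. Over the 8 libraries the mean level was 752 ± 299 CPM for Lmo2, rank 132 of all genes. It was 353 ± 127 CPM for Gata2 (rank 241), 248 ± 121 for Erg (rank 368), 215 ± 85.9 for Myb (rank 417) and 191.8 ± 37.5 for Runx1 (rank 464). The lower part of the order was Zfpm1 at 175 ± 74.1 CPM (rank 518), Lyl1 at 155 ± 86.5 (rank 616), Tal1 at 134 ± 43.5 (rank 767), Fli1 at 113 ± 66.7 (rank 961) and Gfi1b at 61.6 ± 32.8 (rank 2098, above 88.5% of all genes; SD, n = 8 throughout). Lmo2 was the first of the 10 in 7 of 8 libraries, and in Dlk1+ replicate 3 Erg was. Gfi1b was the last in 6 libraries, and Fli1 in Dlk1+ replicates 2 and 3. Over the 6 libraries without these replicates Lmo2 had 899.9 ± 123 CPM, Gata2 399 ± 96.1, Myb 252 ± 51.5 and Erg 198 ± 29.3, and Fli1 moved to sixth place at 148 ± 21.9 CPM (SD, n = 6).

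Between neighbours in this order, only the step from Lmo2 to Gata2 exceeded its spread over libraries. Lmo2 was above Gata2 in 8 of 8 libraries, with a log2 ratio of 1.04 ± 0.37 (SD). Erg was above Myb in 2 of 8 libraries although its mean was higher, and Lyl1 was above Tal1 in 4 of 8. The log2 ratio of Fli1 to Gfi1b was 1.16 ± 1.51 over the 7 libraries with Fli1 transcripts. The order of the 10 therefore holds for the means and not for each library.

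**Figure D1:**
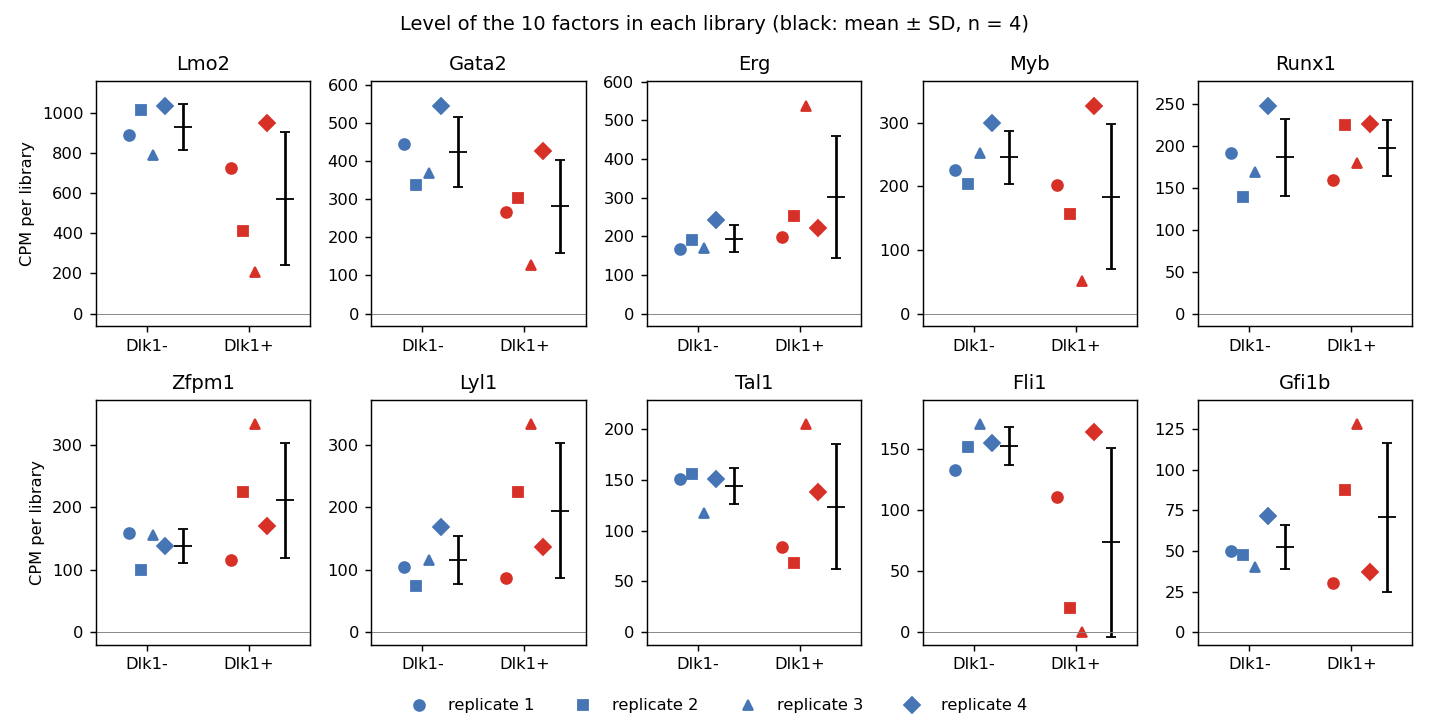
Level of each factor in each library. The vertical axes give CPM, each on its own scale, for the Dlk1- (blue) and Dlk1+ (red) libraries, marker shapes give the replicate number, and black bars give the mean and SD of 4 libraries. The ranges of both sorts overlap for all 10 factors, and Dlk1+ replicate 3 (triangle) is the lowest Dlk1+ library for Lmo2, Gata2, Myb and Fli1 and the highest for Erg, Zfpm1, Lyl1, Tal1 and Gfi1b.

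The first comparison asked whether the level of each factor differed between the sorts. None of the 10 factors passed the test (limma-voom on library sums, Benjamini-Hochberg adjustment over 5666 genes, threshold 0.05), against 2 genes called in all, 0.0353% of those tested. The called genes were Dlk1 itself and Timp3, an inhibitor of metalloproteinases, both higher in Dlk1+. Of the 10 factors, 4 had a fold change above 0 and 6 below 0, with a median log2 value of -0.25 beside -0.045 over all genes tested, of which 44.8% were above 0. Without Dlk1+ replicate 3 the factors' median was -0.17 beside -0.011, and without Dlk1+ replicates 2 and 3 it was -0.066 beside 0.0065. The ranges of the sorts overlapped for all 10 factors (0 without overlap), whereas 3.14% of all genes tested had ranges that did not overlap. The factors' standard errors were between 0.23 and 0.46 on the log2 scale, so the missed threshold does not show that their levels were alike.

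Lmo2, a LIM-domain protein that bridges the DNA-binding factors, lies on chromosome 2 (103957986 to 103981878, plus strand; GRCm38, the mm10 build). Its level was 888, 1012, 789 and 1034 CPM in the Dlk1- libraries and 726, 410, 205 and 951 CPM in the Dlk1+ libraries. Dlk1+ replicates 1, 2 and 3 lay below all Dlk1- libraries, while Dlk1+ replicate 4 lay among them. Each Dlk1+ library, replicate 4 included, lay below the Dlk1- library of its own number. Among the factors, only Lmo2 and Gata2 had the same direction at every replicate number. The labels do not say whether the numbers mark pairs, and the share of all genes with such a pattern was not counted. For Lmo2 the log2 fold change of Dlk1+ over Dlk1- was -0.79 (standard error 0.34, adjusted p 0.707 by limma-voom with Benjamini-Hochberg adjustment). Lmo2 was the only factor with an unadjusted p under 0.05, at 0.0314, beside 369 of the 5666 genes tested. Without Dlk1+ replicate 3 the log2 value was -0.36, and without replicates 2 and 3 it was -0.092 (standard error 0.13).

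Gata2, a zinc-finger factor required for stem cell maintenance, lies on chromosome 6 (88193891 to 88207032, plus strand). Levels were 447, 339, 368 and 545 CPM in the Dlk1- and 268, 303, 128 and 427 CPM in the Dlk1+ libraries. Here too 3 of the 4 Dlk1+ libraries lay below every Dlk1- library and replicate 4 did not, though each lay below the Dlk1- library of its own number. The log2 fold change was -0.53 (standard error 0.27, adjusted p 0.763), and it was -0.32 without Dlk1+ replicate 3 and -0.26 without replicates 2 and 3. The sign of the value was thus the same with the deep libraries alone, where it did not pass the test either (adjusted p 0.852, limma-voom).

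The basic helix-loop-helix factors Tal1 and Lyl1, which pair with E proteins and bind the E-box, had values on opposite sides of 0. Tal1 (chromosome 4, 115056426 to 115071755, plus strand) had 151, 156, 118 and 151 CPM in the Dlk1- and 83.4, 68.3, 205 and 138 CPM in the Dlk1+ libraries. Its log2 fold change was -0.41 (standard error 0.27, adjusted p 0.812), and -0.31 without Dlk1+ replicates 2 and 3. Lyl1 (chromosome 8, 84701457 to 84704715, plus strand) had 104, 73.8, 116 and 168 CPM in the Dlk1- and 85.9, 224, 333 and 136 CPM in the Dlk1+ libraries. Its 2 highest values were those of the shallow Dlk1+ libraries, where 23 and 13 UMIs stand behind them. The log2 fold change of Lyl1 was 0.39 (standard error 0.31, adjusted p 0.847), and it was -0.039 without both shallow libraries. Lyl1 overlaps Nfix on the opposite strand (207 to 312 CPM over the libraries), and whether the counting used strand is not given in the sources used here, so reads of the overlap cannot be told apart.

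Among the ETS factors, Erg was seen in every library, while few or no UMIs of Fli1 stood in the shallow ones. Erg (chromosome 16, 95359169 to 95586593, minus strand) had 168, 191, 170 and 243 CPM in the Dlk1- and 197, 254, 538 and 221 CPM in the Dlk1+ libraries. The value of 538 CPM in Dlk1+ replicate 3 rests on 21 UMIs, with an exact Poisson interval (95%, counting error only) of 338 to 834 CPM, above the other 7 libraries. Erg had a log2 fold change of 0.40 (standard error 0.26, adjusted p 0.810), and of 0.21 without that library. Fli1 (chromosome 9, 32422204 to 32542861, minus strand) had 133, 152, 170 and 155 CPM in the Dlk1- and 111, 19.5, 0 and 164 CPM in the Dlk1+ libraries. Dlk1+ replicate 2 held 2 Fli1 UMIs and replicate 3 held 0, which allows up to 77.9 CPM (3 counts). For Fli1 the log2 fold change was -0.85 (standard error 0.46, adjusted p 0.766), and -0.098 without both libraries. It was -1.43 without Dlk1+ replicate 4 and -1.67 with limma-trend, a fit that does not weight libraries by depth, and neither passed the test. The tables also hold 5 gene symbols that overlap Fli1 on its own strand, of which Gm37474 was the highest (17.4 to 102 CPM), so part of the Fli1 transcripts may have been counted under other names.

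Runx1, required for the emergence of definitive blood stem cells, had the smallest SD of the 10 relative to its mean over all 8 libraries. Over the 6 libraries without Dlk1+ replicates 2 and 3 this did not hold, with 188 ± 41.4 CPM for Runx1 and 899.9 ± 123 for Lmo2. Runx1 (chromosome 16, 92601466 to 92826149, minus strand) had 191, 139, 168 and 247 CPM in the Dlk1- and 159, 224, 179 and 225 CPM in the Dlk1+ libraries. Its log2 fold change was 0.11 (standard error 0.23, adjusted p 0.942 by limma-voom with Benjamini-Hochberg adjustment), and 0.073 without Dlk1+ replicates 2 and 3.

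The repressor Gfi1b, the GATA cofactor Zfpm1 and the progenitor factor Myb completed the list. Zfpm1 (chromosome 8, 122282141 to 122337251, plus strand) had 158, 99.8, 156 and 138 CPM in the Dlk1- and 116, 224, 333 and 171 CPM in the Dlk1+ libraries, again highest in the shallow libraries. The log2 fold change of Zfpm1 was 0.37 (standard error 0.27, adjusted p 0.834), and 0.070 without both. Gfi1b (chromosome 2, 28609450 to 28621982, minus strand) had 50.2, 47.7, 39.96 and 71.3 CPM in the Dlk1- and 30.3, 87.8, 128 and 37.2 CPM in the Dlk1+ libraries. The 2 shallow Dlk1+ libraries were the highest and the 2 deep ones the lowest of all 8, on 9 and 5 UMIs in the shallow ones. For Gfi1b the mean CPM was higher in Dlk1+ (70.8 against 52.3) while the fit, which weights libraries by depth, gave a log2 value of -0.19 (standard error 0.34, adjusted p 0.935.) Without both shallow libraries its log2 value was -0.57 (adjusted p of 0.831).

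Myb (chromosome 10, 21124935 to 21160984, minus strand) had 226, 204, 252 and 300 CPM in the Dlk1- and 202, 156, 51.2 and 326 CPM in the Dlk1+ libraries. Dlk1+ replicate 4 was the highest of the 8 and replicate 3, with 2 UMIs, the lowest. The log2 fold change was -0.30 (standard error 0.32, adjusted p 0.878), and 0.13 without Dlk1+ replicates 2 and 3. A single cell of Dlk1+ replicate 4 carried 26 of the 149 Myb UMIs of that library. That cell held 1906 UMIs of the granulocyte genes Mpo, Elane, Ctsg, S100a8 and S100a9 and 37287 transcripts in all, and it was the only one of the 541 cells with at least 10 such UMIs. Without it, Dlk1+ replicate 4 had 293 CPM of Myb, below the 300 CPM of Dlk1- replicate 4, and the log2 fold change was -0.34 (adjusted p of 0.857, limma-voom). Leaving the cell out also shrinks the library total, and in Dlk1+ replicate 4 the level of Lmo2 was then 1018 in place of 951 CPM, that of Gata2 455 in place of 427 CPM and that of Fli1 162 in place of 164 CPM. The myeloid markers, of which 6 of 7 were found, summed to 5103 CPM in that library. In the other 7 libraries they summed to between 0 and 367 CPM, nearly all of it from Prtn3.

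**Figure D2:**
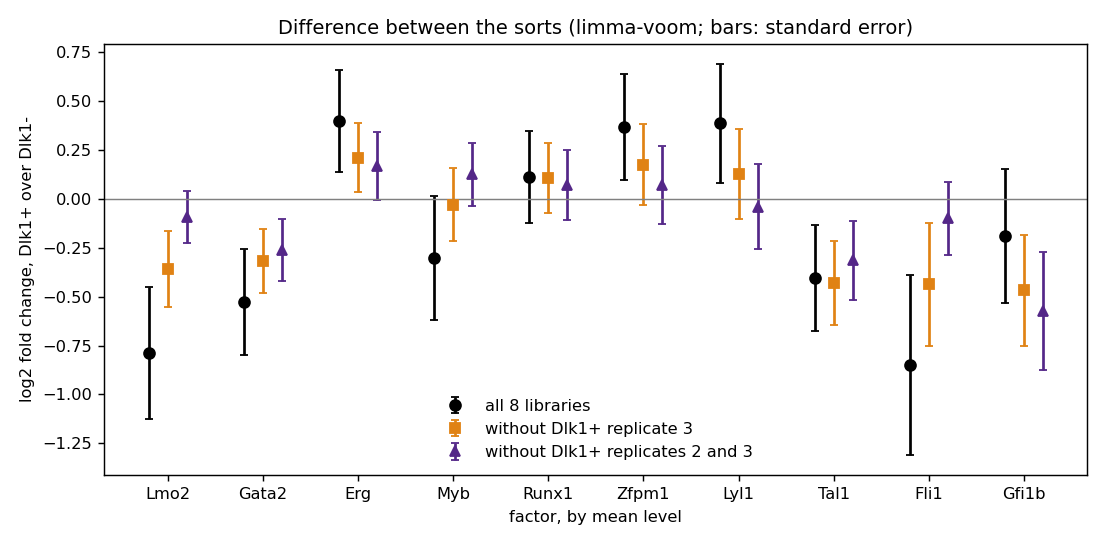
Difference of each factor between the sorts. Points give the log2 fold change of Dlk1+ over Dlk1- libraries by limma-voom, bars its standard error, for all 8 libraries (black), without Dlk1+ replicate 3 (orange) and without Dlk1+ replicates 2 and 3 (purple). Lmo2 moves from -0.79 to -0.092 and Fli1 from -0.85 to -0.098 as the shallow libraries are left out, while Gata2 and Tal1 stay at -0.26 and -0.31 or below.

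Summed over the 10 factors, the level was 2583 ± 321 CPM over the Dlk1- and 2212 ± 394 over the Dlk1+ libraries (SD, 4 each). The Dlk1- libraries had 2517, 2414, 2348 and 3053 CPM and the Dlk1+ libraries 1980, 1971, 2099 and 2796 CPM. Thus 3 of the Dlk1+ libraries lay below all Dlk1- libraries, and replicate 4 lay above 3 of them. Set beside the Dlk1- library of its own number, each Dlk1+ library had the lower sum, replicate 4 included. The log2 difference of -0.23 was smaller than the SD over Dlk1+ libraries on that scale, 0.24, and no test was made of the sum. On plate 5 (replicates 1 and 2) the difference was -0.32 and on plate 6 (replicates 3 and 4) -0.14. Without Dlk1+ replicates 2 and 3 it was -0.13. Both replicates 4 had the highest sums of their sort and also the lowest shares of Gm10800 and Gm26870 transcripts, at 11.7% and 10.1% against 22.8% to 32.8% elsewhere. With these genes left out of the totals the log2 difference was -0.21 and the SD over Dlk1+ libraries was 0.12, with sums of 3040 to 3457 CPM in Dlk1- and 2569 to 3110 CPM in Dlk1+ libraries.

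The make-up of the sum was alike in the deep libraries and different in the shallow ones. Lmo2 made up 33.6% to 41.9% of the factors' transcripts in 6 libraries, but 20.8% in Dlk1+ replicate 2 and 9.76% in Dlk1+ replicate 3. In their place Zfpm1 and Lyl1 made up 11.4% each in replicate 2 and 15.9% each in replicate 3, where Erg reached 25.6%. In the other 6 libraries Zfpm1 was between 4.13% and 6.63%, Lyl1 between 3.06% and 5.49% and Erg between 6.68% and 9.96%. The share of Runx1 was between 5.75% and 11.4% in all 8. With a minimum of 500 transcripts, 75 cells in place of 26 remained in Dlk1+ replicate 3, and there Lmo2 stayed at 159 CPM (12 UMIs), Erg at 476, Zfpm1 at 331 and Lyl1 at 318 CPM. The median cell had 1300 transcripts in Dlk1+ replicate 3 and 3421 in Dlk1+ replicate 2, beside 3985 in Dlk1+ replicate 1. Replicate 2 thus stood apart more by its 27 cells than by depth per cell. The part of depth and of cell number in this make-up was not tested.

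**Figure D3:**
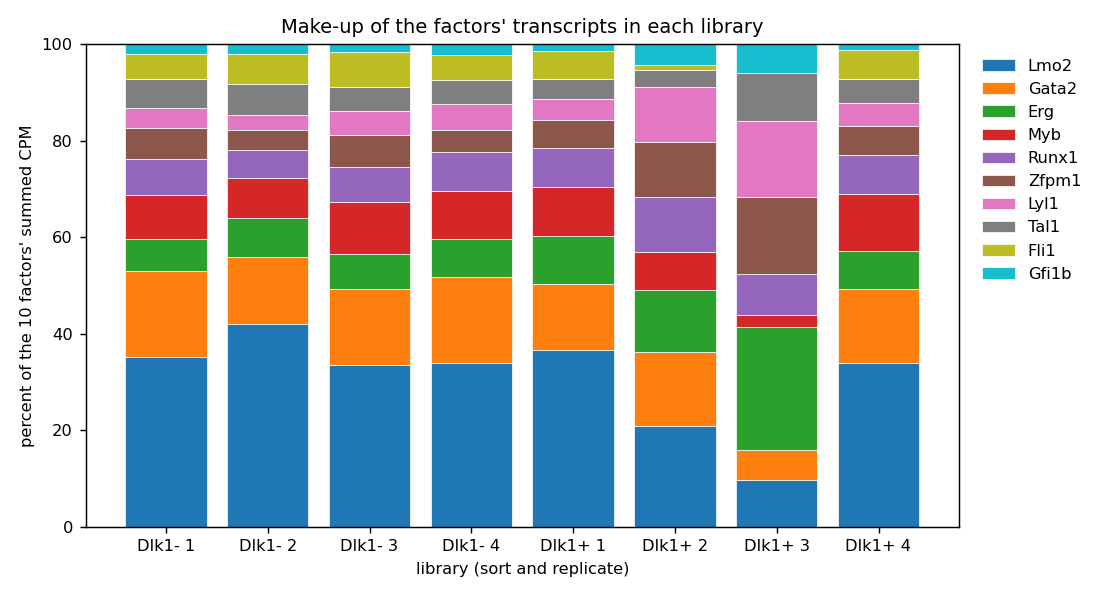
Make-up of the factors' transcripts. Each bar is 1 library, and its coloured parts are the percent of the 10 factors' summed CPM that each factor took. Lmo2 (bottom) takes 33.6% to 41.9% in 6 libraries, 20.8% in Dlk1+ replicate 2 and 9.76% in Dlk1+ replicate 3.

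The share of cells in which a factor was seen was highest for Lmo2 and lowest for Gfi1b, and it depended strongly on depth. When each cell was thinned to 1000 UMIs, Lmo2 was seen in 57.7% of the 541 cells, Gata2 in 31.98%, Erg in 21.3% and Myb in 21.1%. Runx1 was seen in 15.3%, Fli1 in 14.1%, Zfpm1 in 13.1%, Lyl1 in 12.8%, Tal1 in 10.9% and Gfi1b in 3.88%. With all UMIs the shares were 88.5% for Lmo2, 72.1% for Gata2 and 61.9% for Myb, and between 43.3% and 60.4% for Erg, Runx1, Zfpm1, Lyl1, Tal1 and Fli1, with 17.9% for Gfi1b. A cell held 4.31 UMIs of Lmo2 on average and at most 16, but fewer than 1 each of Runx1, Zfpm1, Fli1, Tal1, Lyl1 and Gfi1b (0.246 to 0.970), so that a cell without a UMI is not shown to lack the transcript.

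Background was read from 728 barcodes that no sorted cell used. A median of 33 UMIs stood on such a barcode, against at least 1000 on a cell. Among them, 2.06% held a UMI of Gata2, 1.92% of Lmo2 and 0.137% to 0.824% of each other factor. All 10 factors together took 0.237% of the UMIs there and 0.260% of those of the cells.

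**Figure D4:**
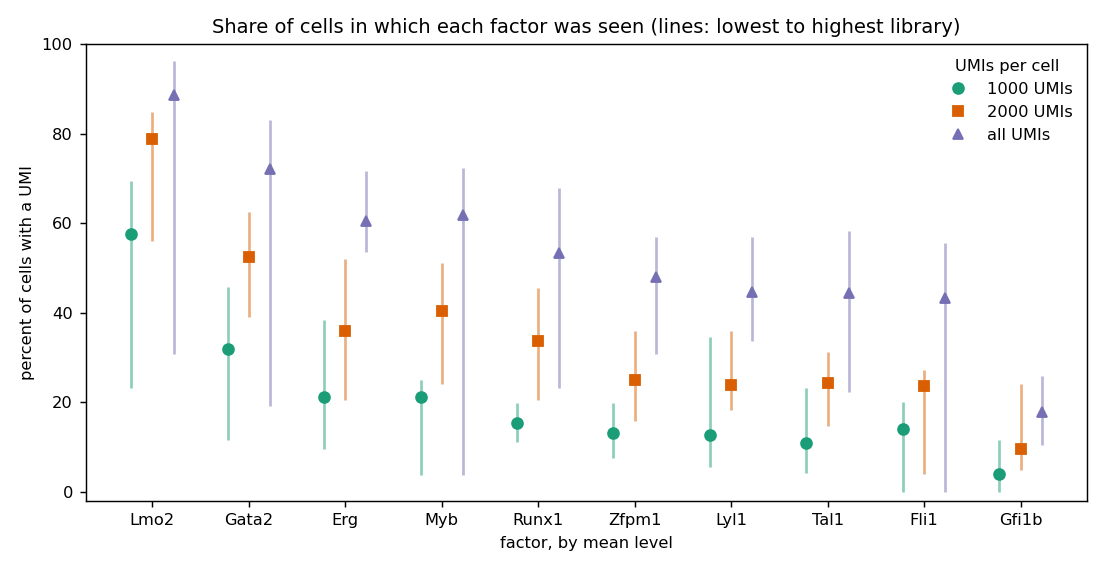
Share of cells with at least 1 UMI of each factor. Points give the percent of cells over all libraries after thinning to 1000 UMIs (circles, 541 cells) or 2000 UMIs (squares, 497 cells) or with all UMIs (triangles), and lines run from the lowest to the highest library, leaving out the 4 cells of Dlk1+ replicate 3 at 2000 UMIs. Lmo2 is highest at each depth, at 57.7%, 78.9% and 88.5%, and Gfi1b lowest.

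Between the sorts, the share of cells with Lmo2 at 1000 UMIs was 62.5%, 69.4%, 58.9% and 63.8% in the Dlk1- and 55.8%, 33.3%, 23.1% and 59.3% in the Dlk1+ libraries. Only Dlk1+ replicate 4 lay within the Dlk1- range, just above Dlk1- replicate 3 and below Dlk1- replicate 4. The difference of -20.8 percentage points had a two-sided exact permutation p of 0.0571 and an adjusted p of 0.736 over the 2629 genes seen in at least 5% of cells. No gene of the 2629 passed after adjustment (0 by the exact permutation test, 112 with an unadjusted p of at most 0.05). The smallest p that 4 libraries against 4 allow is 0.0286. With that floor the adjusted test could pass only if a large part of the 2629 genes reached it, so it says little on any single gene. The shares of Gata2 differed by -12.7 points (36.6% ± 6.75 in Dlk1- and 23.9% ± 11.5 in Dlk1+, SD, n = 4 each) and those of Myb by -10.6 points, with exact permutation p of 0.114 and 0.0857. Shares of Erg differed by 10.1 points and of Lyl1 by 8.62 points, with exact permutation p of 0.143 and 0.171. For Runx1, Tal1 and Zfpm1 the differences were -0.540, -0.483 and 2.45 points, and that of Fli1 was -6.05 points. Gfi1b was seen in too few cells to be tested. Without Dlk1+ replicate 3 the difference was -14.2 points for Lmo2, -8.57 for Gata2, -7.58 for Myb, 6.54 for Erg, 3.40 for Lyl1 and -3.25 for Fli1. Without replicates 2 and 3 it was -6.14 points for Lmo2, -13.1 for Gata2, -1.42 for Myb, 5.69 for Erg, 1.02 for Lyl1 and 0.502 for Fli1. Depth also moved these values: with no thinning they were -18.0 points for Tal1 and -24.4 for Fli1, and at 2000 UMIs 16.2 for Zfpm1, where 4 cells stand for Dlk1+ replicate 3.

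Most cells showed several of the factors at once. With all UMIs, 5 of the 541 cells held none of the 10 and 4 held all 10, and the most common number was 6, in 102 cells. At 1000 UMIs per cell, 59 cells held none and 169 held 2. The mean number per cell at that depth was 2.18, 2.00, 1.89 and 2.34 for Dlk1- replicates 1 to 4 and 1.73, 1.63, 1.77 and 2.14 for Dlk1+ replicates 1 to 4, a difference of -0.286 (-0.169 without Dlk1+ replicates 2 and 3). Here too Dlk1+ replicate 4 lay among the Dlk1- libraries and the other 3 lay below them, and each was below the Dlk1- library of its own number. The spread of the number within a library, as its variance over that of 10 independent genes of the same shares, was 0.813 to 1.72 over the 8 libraries, with the values of 1.69 and 1.72 in Dlk1+ replicates 2 and 3.

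The factors showed little co-variation across cells at this depth. At 2000 UMIs per cell, over 493 cells of 7 libraries (Dlk1+ replicate 3, with 4 such cells, was left out), the median Spearman correlation of the 45 pairs was 0.0167, with a range of -0.0686 to 0.128. For comparison, 13994695 pairs of 5291 genes had a median of 0.00190 and 90% of them lay between -0.0676 and 0.0865. Of the 45 pairs 27 were above 0, beside 51.6% of all pairs, and 1 was above 0.1, beside 2.96% of all pairs. These are descriptions over cells that share a library and its depth, with few UMIs of each factor, and weak values are no finding.

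The highest pair was Myb with Zfpm1, at 0.128, with values above 0 in 7 of 7 libraries (0.0363 to 0.393). Both were seen in 62 cells, where 48.2 would be so if they were independent within libraries. Next came Lmo2 with Erg at 0.0964, above 0 in 6 of 7 libraries, Gata2 with Lyl1 at 0.0696 and Tal1 with Lmo2 at 0.0622. The lowest pair was Fli1 with Gfi1b at -0.0686, with both in 6 cells.

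**Figure D5:**
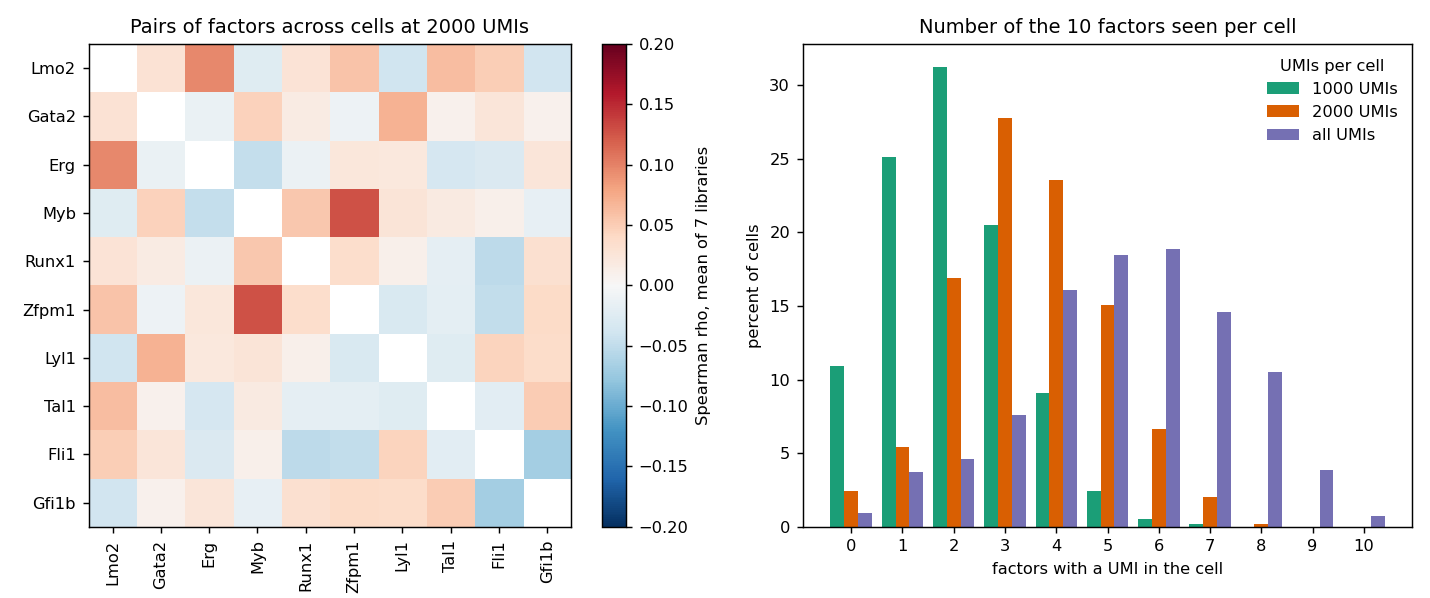
Co-variation of the factors across cells. Left, the colour of each square gives the Spearman correlation of a pair at 2000 UMIs per cell, averaged over 7 libraries; right, bars give the percent of cells in which 0 to 10 of the factors had a UMI at 3 depths. Myb with Zfpm1 is the darkest square at 0.128, and with all UMIs the most common number is 6.

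General features of a cell were set beside the factors. The sum of the factors had a correlation of 0.223 with the share of ribosomal protein transcripts and of -0.272 with that of Gm10800 and Gm26870, and 0.136 with the HSC markers. For Lmo2 alone these were 0.180, -0.170 and 0.142. At a fixed number of UMIs, a larger share of Gm10800 and Gm26870 leaves fewer UMIs for all other genes. The part of these features in the pairs above was not tested.

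The genes most like each factor were sought among 976 others seen in at least 20% of cells. Those named are the highest of 976 small values, no test was made of them, and they are no finding. For Lmo2 they included the ribosomal protein gene Rpl34 at 0.211 and Gm9493 at 0.200. For Erg they were Rps20, Rpl13a and Rpl13, also ribosomal protein genes, at 0.169, 0.161 and 0.158, and for Lyl1 the first was Rpl19 at 0.171. For Gata2 they were Fam65a, Sec31a and Ttc3 (0.146 to 0.164), and for Runx1 Dcun1d1, Tia1 and the imprinted non-coding RNA Meg3 (0.142 to 0.161). For Tal1 the first was Nfe2, a megakaryocyte and erythroid transcription factor, at 0.146, followed by Acin1 and Atp5h. The value of Nfe2 ran from -0.125 to 0.373 over the 7 libraries, and that of Atp5h was above 0 in 4 of them. Myb was most like Sqstm1, 9430062P05Rik and Cd24a (0.151 to 0.155), Zfpm1 like Serinc3, Por and H13 (0.133 to 0.152), and Fli1 like Lgals9, Cbx6 and Snrpg (0.149 to 0.172). No factor appeared among the 3 genes most like another, and Gfi1b was seen in too few cells for the search.

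Partners of the factors in their complexes were expressed as well. Of 20 such genes, 17 passed the filter on low values and 0 were called, with 7 values above and 10 below 0 and a median log2 fold change of -0.020. The highest was Cbfa2t3 (ETO2), a corepressor of the Tal1 complex, at 541 ± 265 CPM, followed by the chromatin remodeller Chd4 (282 ± 133), the E protein Tcf4 (216 ± 37.5) and the Ldb1 partner Ssbp3 (161 ± 38.3; SD, n = 8). Gata1, Gfi1 and Cbfa2t2 were below the filter. Tcf4 and the histone deacetylase gene Hdac1 were the partners whose ranges did not overlap, both lower in Dlk1+, with log2 fold changes of -0.37 (adjusted p of 0.808) and -0.67 (adjusted p of 0.696) by limma-voom. That is 2 of 17 beside the 3.14% of all genes, and neither passed the test. In both lists described next, 0 of the genes tested had ranges that did not overlap.

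Of 29 other stem cell and lineage factors, 28 were in the tables, 24 passed the filter and 0 were called, with 11 above and 13 below 0 and a median of -0.12. Hlf (518 ± 73.5 CPM), Bcl11a (347 ± 104) and Meis1 (299 ± 63.3) were among the most abundant. Spi1, Cebpa, Klf1 and Ets1, factors of the myeloid, erythroid and lymphoid lineages, were below the filter. Of 15 genes known to be bound by the network 11 passed and 0 were called, 5 above and 6 below 0, with a median of -0.071. The cyclin gene Ccnd2 led them at 598 ± 209 CPM, and the receptor gene Kit (382 ± 116) and Bcl2 (167 ± 50.9) were also abundant, while the lineage genes Pf4, Gp1bb and Alas2 were below the filter.

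Markers of other cell types were also summed, and their part in the factors' values was not tested. The erythroid markers summed to 17.4 to 75.8 CPM in the Dlk1- and 48.8 to 140 CPM in the Dlk1+ libraries, with Car1 and Alas2 at 0. Megakaryocyte markers summed to 260 to 423 CPM in the Dlk1- and 207 to 768 CPM in the Dlk1+ libraries, highest in Dlk1+ replicate 3. Cycling markers were at 107 to 417 CPM in the Dlk1- and 296 to 615 CPM in the Dlk1+ libraries, highest in replicate 2. B cell markers reached at most 39.1 CPM with Pax5 at 0, T cell markers 21.7 CPM with Cd3e at 0, and endothelial markers 88.0 CPM with Cdh5 at 0, while stromal markers were at 7.73 to 30.4 CPM in the Dlk1- and 28.5 to 107 CPM in the Dlk1+ libraries.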

How the data were processed

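Per the labels' protocols, marrow LT-HSC were sorted into 384-well plates and 96 wells were pooled per mCEL-Seq2 library. The submitters' processing notes name BWA 0.6.2-r126 and mm10; other steps are not given in the sources used here. Each table deposited by the authors gives, for every gene and cell barcode, an estimated count of transcripts that is not scaled for depth. Inverting the usual correction for UMI collisions (4096 UMIs) gave whole numbers within 3.64e-12 (tolerance 1e-06), which were used for thinning, and the deposited values for library sums.

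Cells were barcodes 1 to 96 in Dlk1+ and 97 to 192 in Dlk1- libraries, without 10 barcodes (17, 20 to 24 and 29 to 32), with at least 1000 transcripts. No doublet caller was run. The library was the replicate. Sums were tested with limma-voom (limma 3.58.1, R 4.3.3) with TMM scaling, group as the only term, on genes at the CPM of 10 counts at the median library in at least 4 libraries and with at least 15 counts, since no automatic check of the tables as counts was possible and edgeR was therefore not run. Shares of cells were compared by two-sided exact permutation over 70 assignments. Correlations are weighted means of values within libraries of at least 20 cells. On simulated library sums the test recovered 2.1% of 2-fold, 78.4% of 4-fold and 98.8% of 8-fold changes, with 0, 4 and 10 false calls. The simulation used a single setting of spread for all genes. Apart from the changed genes it gave all libraries the same make-up, unlike that seen in Dlk1+ replicates 2 and 3. Changes of 2-fold or less were thus mostly out of the test's reach in this setting, and its reach in the real libraries was not measured. Of the gene symbols, 95.8% matched GENCODE mouse release 21. Alternatives were other filters, scalings, blocks and left-out libraries. The named genes were all 10 factors, the 4 highest of each of 3 lists and the 3 genes most like each factor, of which some are not reported here. Members and lists were chosen with earlier results of these data known.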

Additional observations from a re-analysis of the deposited data

Results flagged for a closer look

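In 3 of 42 groups of 4 libraries examined, 1 library lay far from the other 3 by Dixon's criterion, where chance gives about 1 in 20. Tal1 in the Dlk1- libraries was lowest in replicate 3 at 118 CPM, with the next at 151 CPM. Erg in the Dlk1+ libraries was highest in replicate 3 at 538 CPM, on 21 UMIs, with the next at 254 CPM. The summed level of the 10 factors in the Dlk1+ libraries was highest in replicate 4 at 2796 CPM, with the next at 2099 CPM. Barcodes that no sorted cell used held 56 UMIs of the factors, 0.237% of the UMIs there.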

How the results depend on the processing

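Of 190 log2 fold changes of the factors under 19 alternatives, 186 kept their direction and 0 passed the test (smallest adjusted p 0.234, limma-voom). The direction was the opposite for Gfi1b with limma-trend (0.24) and without Dlk1+ replicate 4 (0.12, against -0.47 without Dlk1+ replicate 3), and without Dlk1+ replicates 2 and 3 for Lyl1 (-0.039) and Myb (0.13). The cause was not tested. Genes called numbered 2, but 3 with no filter on low counts, 1 with limma-trend and with a minimum of 2000 transcripts, 4 with the 10 barcodes kept, 5 without Dlk1+ replicates 2 and 3 and between 1 and 19 without 1 library, with 19 without Dlk1+ replicate 4, 3 without replicate 3 and 1 without Dlk1- replicate 3 or Dlk1+ replicate 2. With the replicate block 1 gene was called. Same-numbered libraries had low correlations of deviations, 0.0516, 0.0367, 0.0496 and 0.0644, yet each Dlk1+ library correlated best with its own number. The labels do not say whether the numbers mark pairs, and the main fit did not pair them. The edgeR and DESeq2 alternatives were not run. Limma-trend, the joint removal of replicates 2 and 3 and the removal of the cell with myeloid transcripts were chosen after seeing the data.

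Differences in shares kept their direction in 102 of 120 alternatives. The exceptions in percentage points were Runx1 (2.22), Fli1 (0.502) and Gfi1b (-3.94) without Dlk1+ replicates 2 and 3, and Runx1 at 2000 UMIs (5.24), with the 10 barcodes kept (2.71) and without 1 library (-2.43 to 0.612), Tal1 without 1 library (-4.23 to 1.14), Gfi1b without 1 library (-0.437 to 3.41, with -0.295 without Dlk1+ replicate 2), and with no thinning Lyl1 (-0.614), Gfi1b (-2.92) and Zfpm1 (-9.25). Above 0, the values without 1 library were 0.310, 0.453 and 0.612 for Runx1 and 0.170, 0.620, 0.967, 0.993 and 1.14 for Tal1. Factors seen per cell differed by -1.22 with no thinning. The summed log2 difference ranged from -0.35 (without Dlk1+ replicate 4) to -0.13. The median correlation of pairs was 0.0265 without Dlk1- replicate 1, 0.00555 without Dlk1- replicate 4, 0.00811 without Dlk1- replicate 2, and 0.00865, 0.00769 and 0.00956 without Dlk1+ replicates 1, 2 and 4. At 1000 UMIs it was 0.00752, and by Pearson 0.00423. Depth limits what can be seen of Fli1, Myb and Gfi1b in Dlk1+ replicate 3.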
